A study of Saccharomyces cerevisiae and Kluyveromyces lactis with 95 samples.

Results

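The effect of the kinase inhibitor 1-NM-PP1 was measured in strains of *S. cerevisiae* whose PKA carries no mutation that opens it to the drug. The strains keep the wild-type catalytic subunits (PKA-WT) and lack transcription factors that act below PKA. They are ΔMsn2/4 (*MSN2* and *MSN4* deleted), ΔRph1/Gis1 (*RPH1* and *GIS1* deleted) and a quadruple strain that lacks all 4 genes. The PKA-WT parent is a MATa haploid of the W303 background with the markers *leu2*, *his3*, *trp1*, *ura3* and *can1* and a restored *ADE2*. *MSN2* and *MSN4* were removed by CRISPR, and how *RPH1* and *GIS1* were removed is not given in the sources used here. Members were the libraries whose titles name wild-type PKA together with 1 of these deletions, which gave 18 of the 95 libraries of the series. Each strain gave 3 libraries with 3 µM 1-NM-PP1 and 3 with DMSO, so that 9 drug libraries were compared with 9 DMSO libraries. Cells in YPD were divided into a drug portion and a DMSO portion and collected after 50 min. The wider study set *S. cerevisiae* beside *K. lactis* and inhibited PKA in strains where gatekeeper mutations make it analog-sensitive (PKA-AS). In the PKA-WT strains, the comparison asks what the drug does to transcript levels without that sensitised target.

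1-NM-PP1 is a bulky analog of the Src-family inhibitor PP1 that fits an ATP pocket enlarged by a gatekeeper mutation and binds most natural kinases poorly. PKA, the cAMP-dependent kinase, keeps Msn2 and Msn4 out of the nucleus in glucose, and its inhibition in yeast is known for switching on stress genes and switching off ribosome production. Pleiotropic drug resistance is a separate system, in which the zinc-cluster activators Pdr1 and Pdr3 bind GC-rich elements in promoters and switch on efflux pumps of the ABC family and genes of membrane lipids.

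The libraries were made with QuantSeq, which sequences the 3′ end of polyadenylated RNA, and the authors deposited raw counts of reads per gene. The 18 libraries held 511233 to 4715139 counts on genes (median 2111260), with the fewest in the drug portion of quadruple culture 3. Reads with more than 1 alignment made up 5.45 to 13.3% of a library, and 21.1% in the ΔMsn2/4 DMSO portion 1. *MSN2* had 0 to 4 counts in the strains that lack it and 6 to 13 in ΔRph1/Gis1. *MSN4* had 0 to 11 counts in ΔMsn2/4, 1 to 44 in the quadruple strain and 28 to 180 in ΔRph1/Gis1. In PKA-WT without a deletion, *MSN2* had 1 to 10 counts and *MSN4* 8 to 47. These ranges overlap those of the strains that lack the genes, so the counts check the *MSN2* and *MSN4* labels only weakly. *RPH1* was at 0 counts in every library, strains that keep it included, and *GIS1* had at most 8 counts in any of them, so the counts neither check nor contradict the labels of ΔRph1/Gis1. The first principal component of log2 CPM held 57.5% of the variance. All 6 libraries numbered 3 lay between 21.6 and 60.8 on it and those numbered 1 at 0.0524 or below, while those numbered 2 lay between -50.9 and 38.2 and overlapped both. Levels are given as CPM, counts scaled to library size with TMM factors. They are shares of a library, so fewer cells and less RNA per cell cannot be told apart.

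Few genes changed with the drug in these strains. Of the 7 with a log2 fold change (LFC) above 2, 6 are on a list of drug-resistance genes. That list holds 26 of the 5600 genes tested. It was chosen with earlier results of these data known, so the overlap is not independent evidence. Over the 9 drug and 9 DMSO libraries, with deletion as a block, 12 of 5600 genes were higher with 1-NM-PP1 (0.214% of the genes tested) and 10 were lower (0.179%) at an adjusted p under 0.01 (edgeR's quasi-likelihood test). With the LFC also required to pass 2, 7 genes were higher and 0 lower, and at an adjusted p under 0.05 there were 21 and 32. At an unadjusted p under 0.05 there were 287 and 345. All 12 higher genes were higher in the drug portion of 9 of 9 cultures, which was so for 107 genes in all (1.91%), and 125 genes (2.23%) were lower in 9 of 9. In 9 genes, every drug library lay above every DMSO library (0.161% of genes), and all 9 are among the 12. With each culture as a replicate block, the counts were 19 higher and 22 lower, and with the replicate number beside deletion they were 34 and 57, the genes called without a block among them in both. With libraries scaled by their totals alone, the median LFC of all genes moved from 0.03 to 0.21, and 15 genes were higher and 3 lower, which put the higher genes at 83.3% of the calls against 54.5%.

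*PDR5* and *YOR1*, which encode ABC transporters that pump drugs out of the cell, rose with no overlap between the drug and DMSO libraries. *PDR5* (YOR153W, XV:619840-624375) stood at 105, 55.8 and 52.2 CPM in the 3 DMSO portions of ΔMsn2/4 and at 582, 298 and 378 CPM in the drug portions. In ΔRph1/Gis1 it went from 46.9, 51.8 and 82.8 CPM to 610, 372 and 588, and in the quadruple strain from 67.4, 103 and 82.1 CPM to 477, 396 and 442. The lowest drug library was thus well above the highest DMSO library. Its pooled LFC was 2.69 (SE 0.22, adjusted p = 8.65e-07). *YOR1* (YGR281W, VII:1052824-1057257) went from 62.1, 30.4 and 55.3 CPM to 312, 248 and 267 in ΔMsn2/4 and from 78.9, 73.2 and 81.3 CPM to 458, 401 and 507 in ΔRph1/Gis1. In the quadruple strain it went from 64.05, 82.8 and 75.0 CPM to 489, 443 and 460. Again no drug library reached down to the DMSO range, and ΔMsn2/4 had the lowest levels both with and without the drug. The pooled LFC of *YOR1* was 2.56 (SE 0.15, adjusted p = 7.79e-09), and it was close to that in each strain.

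*RSB1* (YOR049C, XV:422668-423732), a membrane protein that moves sphingoid long-chain bases out of the cell, was at or near 0 without the drug. In ΔMsn2/4 it had 0 counts in each DMSO portion and 14.3, 10.2 and 16.4 CPM in the drug portions. In ΔRph1/Gis1 it went from 2.28, 1.02 and 1.88 CPM to 62.2, 41.98 and 53.5, and in the quadruple strain from 1.02, 1.47 and 0.892 CPM to 29.8, 28.7 and 27.8. Groups did not overlap, and the drug level was lowest in ΔMsn2/4. Over all libraries, 24 counts with DMSO stood against 713 with the drug. The pooled LFC was 5.03 (SE 0.29, adjusted p = 7.79e-09). Against a floor of 3 counts per library, *RSB1* was at least 7.1-fold higher with the drug in ΔMsn2/4.

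*YGR035C* (VII:557072-557422), a gene of unknown function, was nearer still to the limit of counting. It had 2 counts in the 9 DMSO libraries together and 217 in the 9 drug libraries, a ratio of 109 with an exact 95% interval of 29.7 to 904 that covers counting error only. With the drug it stood at 14.3, 14.0 and 5.70 CPM in ΔMsn2/4, 7.25, 11.2 and 9.14 CPM in ΔRph1/Gis1 and 11.8, 6.82 and 1.63 CPM in the quadruple strain. Every drug library was above every DMSO library, where the highest value was 0.522 CPM. The fitted LFC was 5.97 (SE 0.53, adjusted p = 1.97e-06), but with so few counts its size depends on the prior count.

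A further 3 genes, *ICT1*, *CIS1* and *YPL088W*, rose by an LFC above 2. *ICT1* (YLR099C), a lysophosphatidic acid acyltransferase, had 6.53 to 19.0 CPM with DMSO (median 15.1) and 27.8 to 112 with the drug (median 78.6), with an LFC of 2.45 (SE 0.26, adjusted p = 2.01e-05). *CIS1* (YLR346C) had 0 to 4.57 CPM with DMSO (median 2.198) and 6.87 to 18.7 with the drug (median 12.0), with an LFC of 2.42 (SE 0.33, adjusted p = 0.000666). Neither gene's groups overlapped. *YPL088W*, a putative aryl-alcohol dehydrogenase, had 28.4 to 200.8 CPM with DMSO (median 86.5) and 195 to 859 with the drug (median 411). Its LFC was 2.24 (SE 0.35, adjusted p = 0.00249), and here the highest DMSO library, in ΔMsn2/4, lay above the lowest drug libraries.

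**Figure D1:**
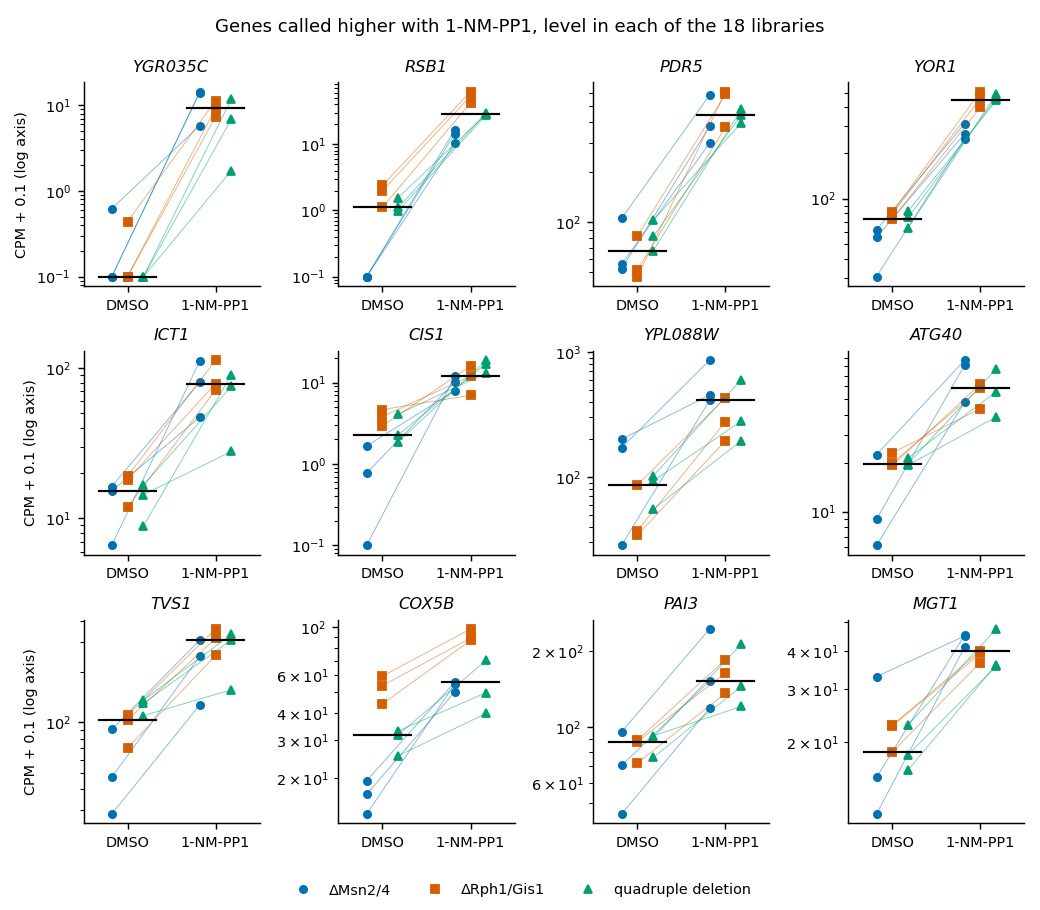
CPM plus 0.1 (log axis) of the genes called higher in the pooled comparison, with a point per library, a line joining the DMSO and 1-NM-PP1 portions of a culture and a bar at the median of 9 libraries. Every one of these genes was higher in the drug portion of 9 of 9 cultures, and *RSB1* and *YGR035C* were at or near 0 CPM with DMSO.

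The promoters of these genes hold letters of the Pdr1/Pdr3 element, shown here because 6 of the 7 genes with an LFC above 2 hold them. TCCGNGGA, searched on both strands in the 700 bases before each start codon, was found at 7 of the 12 higher genes (58.3%), at 0 of the 10 lower genes and at 3.90% of 5895 promoters of the reference. *PDR5* held 4 matches, *YGR035C* 2, and *YOR1*, *ICT1*, *CIS1*, *TVS1* and *YPL088W* 1 each, while none was found in this window for *RSB1*, *ATG40*, *COX5B*, *PAI3* and *MGT1*. A match is a string of letters and not a measured site. The sequences are those of the RefSeq R64 assembly of strain S288C, whose build matches that of the counts, while the cultures were W303. They are given 5′ to 3′ on the strand of the gene, with the matching letters, on either strand, in capitals.
YOR1, VII:1052412-1052441, 401 bases before the start codon: taacgcgtggtTCCGTGGAaatagccggaa
PDR5, XV:619338-619367, 491 bases before the start codon: gcccctctcttTCCGCGGAatcgctcatgc
ICT1, XII:341096-341125, 186 bases before the start codon: acgggtttagtTCCGTGGAgcagatgtgtt
CIS1, XII:822899-822928, 325 bases before the start codon: atccgcctattTCCGCGGAatcaatagggc
YGR035C, VII:557822-557851, 418 bases before the start codon: gggccgattgtTCCACGGAgggaaagaatc
YPL088W, XVI:381690-381719, 264 bases before the start codon: ataacgttattTCCACGGAaaaatgtgatt

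*ATG40*, *TVS1*, *COX5B*, *PAI3* and *MGT1* rose less. *ATG40* (YOR152C), a receptor for autophagy of the endoplasmic reticulum, had 6.08 to 23.1 CPM with DMSO (median 19.8) and 38.7 to 87.0 with the drug (median 58.1), without overlap. Its LFC was 1.79 (SE 0.25, adjusted p = 0.000924). *ATG40* lies next to *PDR5* on chromosome XV and is read the other way, with 1551 bases between their start codons. *TVS1* (YCR061W) had a median of 104 CPM with DMSO and 309 with the drug, an LFC of 1.61 (SE 0.25, adjusted p = 0.00249). *COX5B* (YIL111W), the hypoxic form of a cytochrome c oxidase subunit, had medians of 31.7 and 55.5 CPM, an LFC of 1.09 (SE 0.17, adjusted p = 0.00249). In both, the ranges overlapped across strains. *COX5B* stood at 13.5 to 19.3 CPM in the DMSO portions of ΔMsn2/4 and 44.0 to 59.2 in those of ΔRph1/Gis1. *PAI3* (YMR174C), an inhibitor of the vacuolar proteinase A, rose by an LFC of 1.05 (SE 0.18, adjusted p = 0.00667). *MGT1* (YDL200C), a DNA repair methyltransferase, rose by 1.01 (SE 0.18, adjusted p = 0.00676). The drug and DMSO ranges of these last genes stayed apart, at 119 to 245 against 45.2 to 95.7 CPM for *PAI3* and 35.7 to 47.4 against 11.5 to 32.9 CPM for *MGT1*.

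None of the 10 genes that fell reached an LFC of -2. *URA1* (YKL216W, XI:25215-26159), the dihydroorotate dehydrogenase of pyrimidine synthesis, had 493 to 1415 CPM with DMSO (median 860) and 245 to 428 with the drug (median 293). Its LFC was -1.50 (SE 0.18, adjusted p = 0.000144), and no drug library reached the DMSO range. *URA3* (YEL021W), the orotidine phosphate decarboxylase, carries a mutant allele in the parent strain and still gave transcript. It went from 387 to 989 CPM (median 517) to 193 to 310 (median 280), an LFC of -1.09 (SE 0.18, adjusted p = 0.00337). *ADE1* (YAR015W), of purine synthesis, went from 373 to 1105 CPM (median 443) to 159 to 307 (median 201.5), an LFC of -1.27 (SE 0.22, adjusted p = 0.00686). *ADE17*, of the same pathway, had a larger LFC of -1.96 (SE 0.37) and lay just outside the threshold with an adjusted p of 0.0103.

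*CAR1* (YPL111W), the arginase, went from 38.1 to 82.8 CPM (median 53.8) to 12.8 to 31.9 (median 22.9), without overlap, an LFC of -1.39 (SE 0.19, adjusted p = 0.000666). *SAM3* (YPL274W), the permease for S-adenosylmethionine, had a median of 294 CPM with DMSO and 81.8 with the drug, an LFC of -1.58 (SE 0.25, adjusted p = 0.00249). *MMP1* (YLL061W), the permease for S-methylmethionine, had medians of 58.6 and 26.3 CPM, an LFC of -1.18 (SE 0.21, adjusted p = 0.00814). Both permeases were lower in 9 of 9 cultures, while the ranges over all strains overlapped. *MAE1* (YKL029C), the mitochondrial malic enzyme, had the largest fall of the 10 and the widest spread. Its DMSO portions held 138, 71.0 and 62.1 CPM in ΔMsn2/4, 41.9, 60.0 and 112 in ΔRph1/Gis1 and 170, 229 and 109 in the quadruple strain. The drug portions held 20.6, 10.2 and 22.8 CPM, then 43.9, 18.4 and 34.9, then 19.0, 25.3 and 60.4. Levels fell in 8 of 9 cultures and not in ΔRph1/Gis1 culture 1, and the LFC was -1.93 (SE 0.32, adjusted p = 0.00414).

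*STI1* (YOR027W), a co-chaperone of Hsp90, went from 293 to 595 CPM (median 380) to 110 to 270 (median 168), without overlap, an LFC of -1.11 (SE 0.18, adjusted p = 0.00404). *ZEO1* (YOL109W) went from a median of 85.1 CPM to 34.2, an LFC of -1.27 (SE 0.21, adjusted p = 0.00371). *RPL2A* (YFR031C-A), a protein of the large ribosomal subunit, went from a median of 3781 CPM to 2107, an LFC of -1.002 (SE 0.18, adjusted p = 0.00745). For both, every drug library was below every DMSO library. *RPL2A* has a near-identical copy in *RPL2B*, and reads that fit both copies were not counted on either, so its level is uncertain. In all, 13 genes (0.232%) had every drug library below every DMSO library, and 7 of them are among the 10 called lower.

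Counts of lower genes leaned on single libraries. Only 3 were called without the drug portion 2 of ΔMsn2/4 and 3 without that of ΔRph1/Gis1. The count was 5 without the DMSO portion 2 of the quadruple strain, 5 without the DMSO portion 3 of ΔRph1/Gis1, and 6 without the drug portion 3 of ΔMsn2/4 or the drug portion 2 of the quadruple strain. The count of higher genes stayed at 10 to 12 when any 1 library was left out. Without the 6 libraries of replicate number 1, 2 or 3, the counts were 8 higher and 4 lower, 4 and 0, and 5 and 0. Without both portions of quadruple culture 3 they were 11 and 6.

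**Figure D2:**
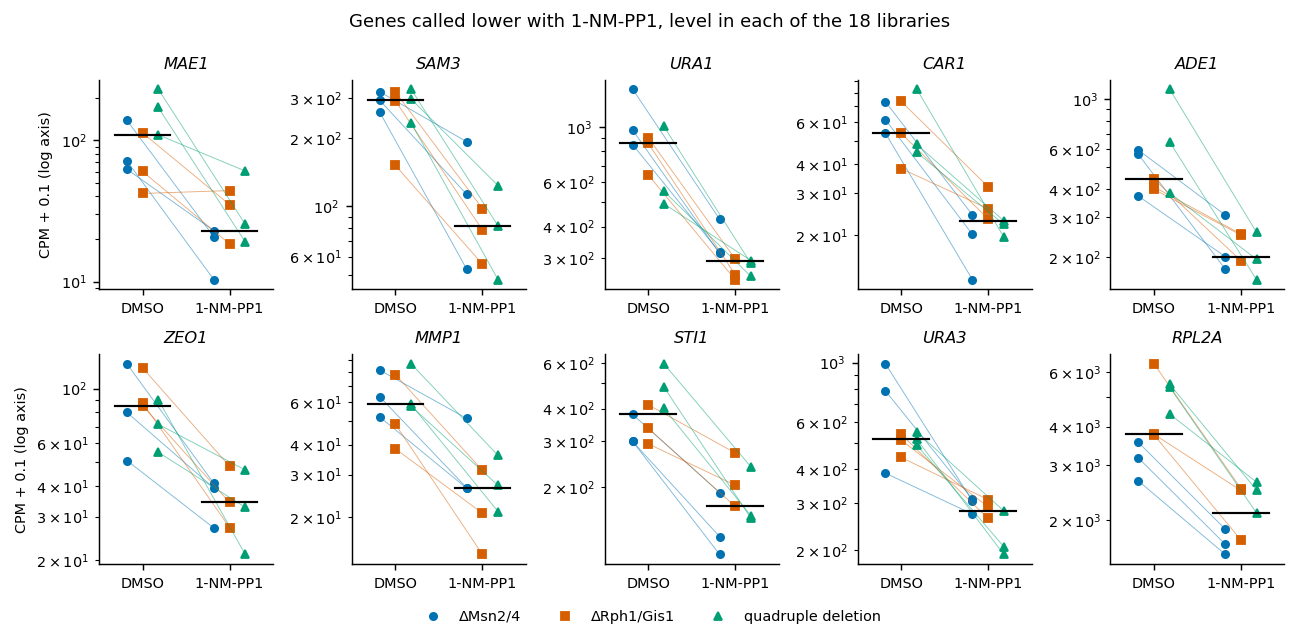
CPM plus 0.1 (log axis) of the genes called lower in the pooled comparison, drawn in the same way, with a bar at the median of 9 libraries. *MAE1* was lower in the drug portion of 8 of 9 cultures and the other genes in 9 of 9.

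Letters of the element that the pyrimidine activator Ppr1 binds were found before some of the lower genes, among them both pyrimidine genes. This element, CGG and CCG with any 6 bases between them and searched on both strands, lay in the 700 bases before 3 of the 10 lower genes (30.0%), 0 of the 12 higher genes and 3.70% of 5895 promoters. TGACTC, the core that Gcn4 and Bas1 share, was found before 3 of the 10 lower genes, *CAR1*, *URA3* and *ADE1*. It was also found before 1 of the 12 higher genes, *YPL088W*, and before 18.4% of promoters. The matches to the first element, in capitals, were these.
URA1, XI:24994-25023, 212 bases before the start codon: tttcttcacCGGGCTTTGCCGaaggttatt
URA1, XI:25025-25054, 181 bases before the start codon: cacgatcttCGGCATTCGCCGaaaattttt
URA3, V:116006-116035, 152 bases before the start codon: tttttgattCGGTAATCTCCGagcagaagg
CAR1, XVI:339775-339804, 160 bases before the start codon: ttcacttagCGGTAGCCGCCGaggggtcta

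Part of the drug-resistance genes rose. Of 26 tested genes on a list named for Pdr1/Pdr3 drug resistance, 6 rose (12 of 5600 over all genes), 0 fell and 20 did not pass the test. Whether each member is a target of Pdr1 or Pdr3 was not tested. The median LFC of the list was 0.50, against 0.03 over all genes tested, and 21 of its genes had an LFC above 0, as did 2974 of all 5600. The 6 were *YGR035C*, *RSB1*, *PDR5*, *YOR1*, *ICT1* and *CIS1*. *SNQ2*, another ABC transporter, had an LFC of 1.59 (SE 0.40) with an adjusted p of 0.0692, and *RTA1* had 1.06 (SE 0.24) with an adjusted p of 0.0413. *PDR3*, which encodes the activator itself, had an LFC of 1.00 (SE 0.35, adjusted p = 0.246), and *PDR1* had 0.10 (SE 0.18, adjusted p = 0.897). *PDR15*, a close relative of *PDR5*, had -0.51 (SE 0.27, adjusted p = 0.499), and *PDR12*, an exporter of weak organic acids, had -1.14 (SE 0.37, adjusted p = 0.182). The list's median of log2 ratios was above 0 in 9 of 9 cultures, from 0.22 in ΔRph1/Gis1 culture 1 to 1.75 in quadruple culture 1.

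Of 36 tested stress genes that PKA inhibition is known to raise, 0 rose and 0 fell at an adjusted p under 0.01. At an unadjusted p under 0.05, 5 of them were higher (13.9%), against 5.12% of all genes. Their median LFC was 0.22 against 0.03 over all genes, with medians from -0.40 to 0.83 in single cultures, above 0 in 6 of 9. *GLC3*, the glycogen branching enzyme, had an LFC of 0.59 (SE 0.26, adjusted p = 0.385), and the cell wall protein *SPI1* had 1.14 (SE 0.40, adjusted p = 0.244). *HSP12*, a small membrane-bound stress protein, was higher in the drug portion of 9 of 9 cultures but ranged from 0.733 to 54.1 CPM with DMSO and from 2.31 to 76.8 with the drug. Its LFC of 0.89 (SE 0.68) had an adjusted p of 0.694. Genes of trehalose and glycogen also gave 0 calls among 20, with a median of 0.22. Msn2 and Msn4, the main activators of such genes, are deleted in ΔMsn2/4 and the quadruple strain and present in ΔRph1/Gis1. The median of the stress genes was 0.53 in ΔMsn2/4, 0.52 in the quadruple strain and -0.06 in ΔRph1/Gis1. In PKA-WT without a deletion, which keeps both factors, it was 0.27. Medians of single cultures differed within a strain, at 0.58, 0.56 and -0.27 in the quadruple strain and -0.40, -0.14 and 0.29 in ΔRph1/Gis1. A difference in this median between strains was not tested.

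The lists of purine synthesis, protein folding and amino acid uptake had medians below 0 in every culture, with few calls. They are some of a larger number of lists and were named after their values were seen. Deviations from group means correlated between deletions of the same number (median r 0.683), so the 9 cultures are not 9 independent trials. Over all 5600 genes, 2626 had an LFC below 0 and 6.16% were lower at an unadjusted p under 0.05. In the list of purine and one-carbon genes, 1 of 31 fell (*ADE1*), 30 had an LFC below 0 and 11 (35.5%) were lower at that p. Its median was -0.38, and it lay below 0 in 9 of 9 cultures, from -0.97 to -0.12. *SHM2*, a serine hydroxymethyltransferase, had an LFC of -1.41 (SE 0.35, adjusted p = 0.0692), lower in 9 of 9 cultures. Among 26 chaperones and Hsf1 targets, 1 fell (*STI1*), 22 had an LFC below 0, and the median was -0.37, below 0 in 9 of 9 cultures. *BTN2*, a sorter of misfolded proteins, had an LFC of -1.15 (SE 0.25, adjusted p = 0.0297) and *HSC82*, an Hsp90, had -0.79 (SE 0.21, adjusted p = 0.0828). The 20 amino acid permeases had a median of -0.18, below 0 in 9 of 9 cultures, with 0 calls. Of 13 pyrimidine genes, 2 fell, 11 had an LFC below 0, and the median was -0.18. *URA10*, on the same list, went the other way, with an LFC of 0.83 (SE 0.23, adjusted p = 0.112), higher in 8 of 9 cultures. Of 45 Gcn4 targets of amino acid synthesis, 0 were called, 39 had an LFC below 0 and the median was -0.31. The 33 proteasome genes leaned the other way, with 29 above 0, 0 calls and a median of 0.36.

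Cytoplasmic ribosomal protein genes had medians on both sides of 0 in single cultures. Of 133 tested, 1 fell (*RPL2A*), 126 had an LFC below 0 and 44 (33.1%) were lower at an unadjusted p under 0.05, against 2626 of 5600 and 6.16% over all genes. The median was -0.60. The list's medians in single cultures were -1.21, 0.43 and -1.05 in ΔMsn2/4, -1.40, -1.35 and -0.67 in ΔRph1/Gis1, and 0.70, 0.52 and -1.33 in the quadruple strain, so that 3 of 9 were above 0. Summed over the list, libraries ranged from 190880 to 448060 CPM with DMSO and from 97760 to 244480 with the drug. Ribosome biogenesis genes had a median of -0.24, with 0 of 59 called and 53 below 0.

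**Figure D3:**
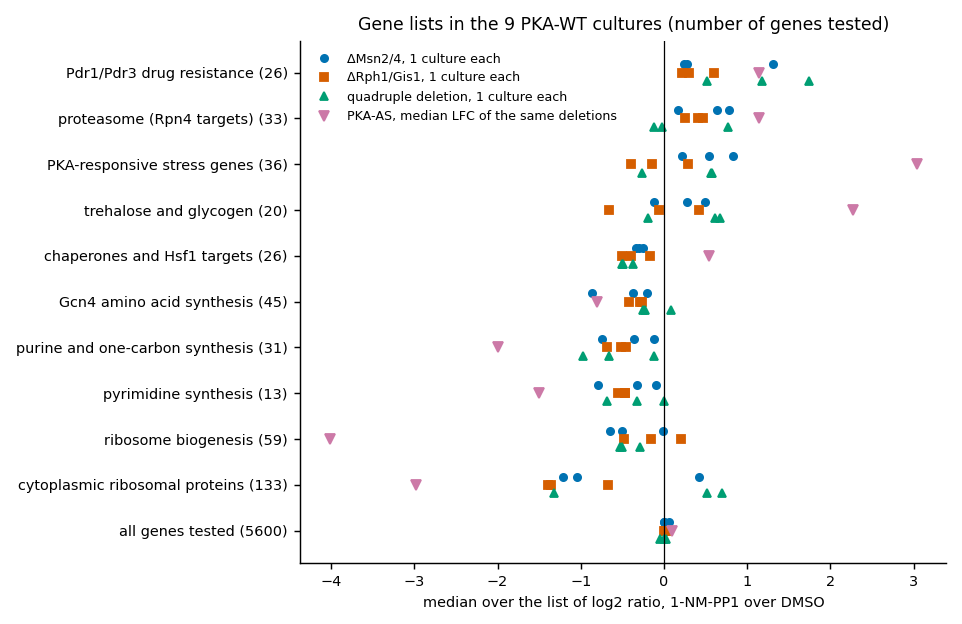
Median over each gene list of the log2 ratio of drug to DMSO portion, with 1 point per PKA-WT culture, beside the median LFC of the same list in PKA-AS strains with the same deletions. The Pdr1/Pdr3 list lay above 0 in 9 of 9 cultures, the purine and chaperone lists below 0 in 9 of 9, and ribosomal proteins on both sides.

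Each strain had 3 drug and 3 DMSO libraries, and its own effect came from a fit of all 18 with a shared spread. The calls were a subset of the genes called in the pooled comparison. In ΔMsn2/4 and in ΔRph1/Gis1, *RSB1*, *YOR1* and *PDR5* rose (0.0536% of genes tested in each), and in the quadruple strain *RSB1* and *YOR1* rose (0.0357%). No gene fell at an adjusted p under 0.01 in any strain. At an unadjusted p under 0.05, 149 genes were higher and 138 lower in ΔMsn2/4, 65 and 303 in ΔRph1/Gis1, and 320 and 249 in the quadruple strain. With DESeq2, the counts of higher and lower genes were 9 and 8, 6 and 7, and 10 and 22. *PDR5* had an LFC of 2.56 (adjusted p = 0.00921), 3.11 (adjusted p = 0.00102) and 2.39 (adjusted p = 0.0193) in the strains in this order, and *YOR1* had 2.48 (adjusted p = 0.000565), 2.55 (adjusted p = 0.00037) and 2.65 (adjusted p = 0.000236). *PDR5* in the quadruple strain passed with each culture as a block (adjusted p = 0.00566), and DESeq2 put it at 2.3e-08. In ΔMsn2/4, *PDR5* missed the threshold in 19 of 26 alternative fits. When only the 6 libraries of a strain were fitted, 0 genes were called in each.

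edgeR called no difference of the drug effect between the deletions. In the test of the interaction, 0 of 5600 genes passed (0%), 345 had an unadjusted p under 0.05, and DESeq2 called 1. *SDH8*, an assembly factor of succinate dehydrogenase, had the smallest unadjusted p of 0.00017 (adjusted p = 0.618). It went from 13.5, 14.7 and 19.2 CPM to 149, 116 and 76.8 in the quadruple strain and from 132, 178 and 46.1 CPM to 28.2, 79.1 and 48.4 in ΔRph1/Gis1. The portions did not overlap in the quadruple strain and did in ΔRph1/Gis1, with LFCs of 2.86 and -1.20. For the quadruple strain minus ΔRph1/Gis1, DESeq2 did pass *SDH8*, at 4.08 (adjusted p = 0.00028), and *TAM41*, a mitochondrial CDP-diacylglycerol synthase, at 2.97 (adjusted p = 0.00623), while edgeR gave both an adjusted p of 0.217. *COX5B* had an LFC of 1.68 in ΔMsn2/4 and 0.81 in each of the others, and *CIS1* 3.52, 1.61 and 2.63 in ΔMsn2/4, ΔRph1/Gis1 and the quadruple strain. On simulated counts the interaction test missed differences of a size that the pooled test mostly found, so a difference of that size could pass unseen.

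PKA-WT cells without a deletion had 3 drug and 3 DMSO libraries, fitted together with those of the PKA-WT deletion strains. They gave 4 higher genes (0.071% of 5634 genes) and 0 lower. With each culture as a replicate block there were 7 and 1, and with DESeq2 6 and 4. The 4 were *RSB1* (LFC 4.26), *PDR5* (3.48), *ATG40* (2.81) and *YOR1* (2.69), each also called higher in the pooled deletion strains. The mean effect in the deletion strains minus that without a deletion gave 0 genes higher (0%) and 0 lower, with 58 and 96 at an unadjusted p under 0.05 and 0 and 0 with DESeq2. *CAR1* had an LFC of -1.45 (SE 0.29) without a deletion, against -1.39 in the deletion strains. *MGT1* had 0.42 (SE 0.32) against 1.01, and *ZEO1* -0.27 (SE 0.36) against -1.27. Across 4905 genes with a mean of at least 10 counts, the LFC in the deletion strains and that without a deletion had a Pearson r of 0.371 and a Spearman rho of 0.242. These libraries are separate, but genes are not independent replicates.

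**Figure D4:**
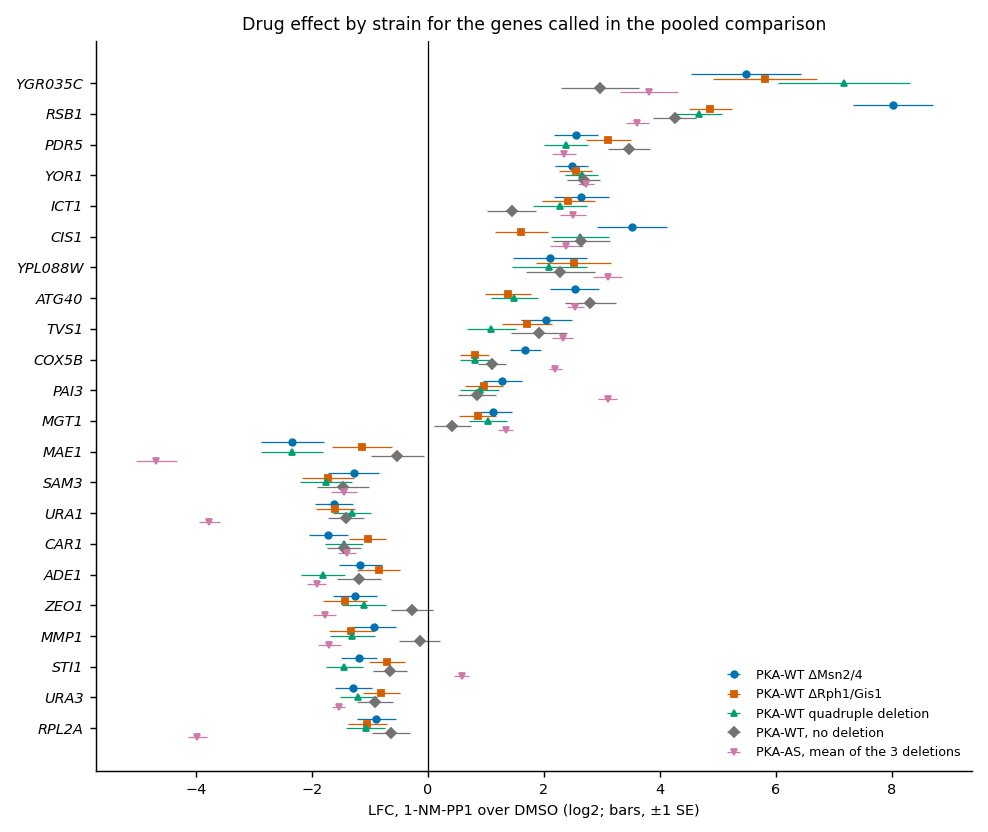
LFC (log2, ±1 SE) of the genes called in the pooled comparison, in each PKA-WT deletion strain, in PKA-WT without a deletion and in PKA-AS as the mean of the same deletions. *YOR1* lay between 2.48 and 2.73 in all of them, and *STI1* was below 0 in PKA-WT and at 0.58 in PKA-AS. The LFC of *RSB1* in ΔMsn2/4 and those of *YGR035C* rest on DMSO counts at or near 0.

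The same deletions were also measured with analog-sensitive PKA, in 24 portions of cultures, where the drug has its intended target. The paper states that the PKA-AS base strain came from another laboratory (Hao and O'Shea) and also carried the nuclear marker NHP6A-IRFP. The effect of strain differences other than the PKA allele was not tested. In these PKA-AS strains, 1405 genes were higher (24.4% of 5747) and 1291 lower (22.5%). The PKA-WT effect minus the PKA-AS effect passed the test at an adjusted p under 0.01 in both directions. It passed above 0 for 749 genes (13% of genes tested) and below 0 for 545 (9.48%). All 12 genes that rose in PKA-WT also rose in PKA-AS. Of the 10 that fell in PKA-WT, 9 also fell in PKA-AS and *STI1* rose there. The 2 effects differed for some of these genes and not for others. *YOR1* had an LFC of 2.56 in PKA-WT and 2.73 in PKA-AS, and *PDR5* 2.69 and 2.35, with differences that did not pass (adjusted p = 0.529 and 0.469). The difference was -0.07 for *ICT1* (adjusted p = 0.938), 0.19 for *CIS1* (adjusted p = 0.816), -0.02 for *CAR1* (adjusted p = 0.993) and -0.14 for *SAM3* (adjusted p = 0.813).

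*PAI3* had an LFC of 1.05 without and 3.10 with analog-sensitive PKA, *URA1* -1.50 and -3.77, *MAE1* -1.93 and -4.68, and *RPL2A* -1.002 and -3.97. For these the difference passed the test, at -2.06 (SE 0.23, adjusted p = 4.26e-09), 2.25 (SE 0.25, adjusted p = 5.39e-09), 2.73 (SE 0.47, adjusted p = 1.64e-05) and 2.96 (SE 0.22, adjusted p = 2.62e-13). The *PAI3* value rests most on ΔRph1/Gis1, where the LFC was 0.97 in PKA-WT and 5.56 in PKA-AS, against 1.29 and 1.88 in ΔMsn2/4 and 0.89 and 1.87 in the quadruple strain. *STI1* went in opposite directions, at -1.11 and 0.58 (difference -1.70, SE 0.20, adjusted p = 1.25e-08), and its LFC in PKA-AS was -0.06 in ΔMsn2/4, 1.40 in ΔRph1/Gis1 and 0.41 in the quadruple strain. Among genes not called in PKA-WT, *AAH1*, the adenine deaminase, had an LFC of -0.38 there and -5.76 in PKA-AS, and *RMT2*, an arginine methyltransferase, had -0.40 and -5.54. Both were lower in 9 of 9 PKA-WT cultures. *NSR1*, a nucleolar protein of ribosome biogenesis, had 0.30 and -6.45. *GLC3* had 0.59 and 4.64, and *HSP12* had 0.89 and 4.99. *HXT7*, a glucose transporter, had -0.59 and 4.98, but *HXT6* is its near-identical copy, so its level is uncertain. The differences of *HXT7*, *DDR2* and *HSP12* lost the threshold without a single library. *HXT7* had an adjusted p of 0.0154 without the ΔMsn2/4 DMSO portion 1 and 0.0341 without the quadruple DMSO portion 1. *DDR2*, a stress gene, had 0.146 without the former, and *HSP12* 0.0133 without the quadruple DMSO portion 3.

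By list, the median LFC was 0.22 in PKA-WT and 3.04 in PKA-AS for the stress genes. Of these 36 genes, 34 rose in PKA-AS, against 1393 of the 5600 genes tested in PKA-WT. The list holds genes that PKA inhibition is known to raise, so a rise in PKA-AS was set by that choice. The median LFC was 0.22 and 2.28 for trehalose and glycogen. It was -0.24 and -4.02 for ribosome biogenesis, and -0.60 and -2.98 for cytoplasmic ribosomal proteins. For chaperones it was -0.37 and 0.54. For the Pdr1/Pdr3 list it was 0.50 and 1.14. Over 4905 genes, the LFC had an SD of 0.41 in PKA-WT and 1.38 in PKA-AS, and a Pearson r of 0.563 and a Spearman rho of 0.575 between them. In single PKA-WT cultures, r with the PKA-AS effect ranged from 0.0641 to 0.535. The genes of a pair of strains are not independent replicates, and what the correlation rests on was not tested.

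**Figure D5:**
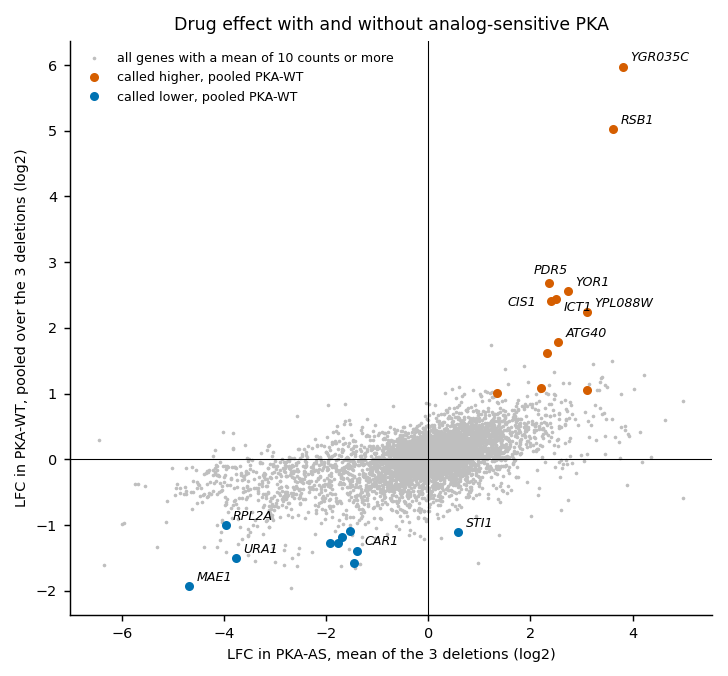
LFC of each gene in the PKA-WT deletion strains, pooled (vertical), against the mean LFC of the same deletions in PKA-AS (horizontal), both on the log2 scale, for 4905 genes with a mean of at least 10 counts. Called genes are coloured, and *STI1* is the called gene whose LFCs have opposite signs, at -1.11 and 0.58.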

How the data were processed

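Reads came from QuantSeq 3′ FWD libraries of 9 drug and 9 DMSO portions of divided cultures. Before deposition, the authors aligned them to build R64 in the Bluebee pipeline and counted them with HTSeq (intersection-nonempty mode, annotation extended by 3′ UTRs), and they deposited raw counts per gene. Versions and the strand setting are not given in the sources used here. Each file holds 6600 genes. Summary lines for reads on no feature (3.42 to 9.98%) and the like were kept out. Genes that reached 2 counts in 3 or more libraries were tested with edgeR 4.0.16 (R 4.3.3, limma 3.58.1, TMM, glmQLFit and glmQLFTest), drug with deletion as a block, or 1 factor of deletion and drug, or, for contrasts with PKA-WT without deletion and PKA-AS, of all strains, with repeat PKA-AS libraries of a culture summed. P-values were adjusted by Benjamini-Hochberg over all genes tested and called under 0.01. The SE of an LFC is its size over the root of F. DESeq2 1.42.0, other scalings, filters and blocks and left-out libraries were alternatives. Tests were tried on simulated data. Tables of the authors' own log2 fold changes and p-values were not used.

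Named genes passed the threshold with a mean of at least 10 counts over the 18 PKA-WT libraries. They also had the same direction in at least 8 of 9 cultures, up to 15 a direction. For PKA-WT minus PKA-AS, the 5 largest each way that passed with the same count minimum were named. Others were named from lists after their values were seen. Members and lists were chosen with earlier results of these data known. The protocol in the labels says that cultures were divided before treatment, and a shared replicate number was taken as a shared culture. Over 4905 genes, deviations from group means correlated within a culture with a median r of 0.583 (-0.231 to 0.830, above 0.1 in 7 of 9). Between deletions of the same number the median was 0.683, above 0.1 in 14 of 18 pairs. Of the 9 drug libraries, 3 correlated best with the DMSO portion of their own culture. Nothing states that cultures of a number shared a day. P-values of the main fits measure the spread between libraries within strains, and the drug and DMSO portions of a culture entered as separate libraries. The fit with each culture as a block, an alternative, takes the shared culture into account. Intervals cover counting error only. Promoters were read from the RefSeq R64 assembly, with 5917 genes matched by locus tag. Python 3.11.15, numpy 2.4.6, pandas 2.3.3 and matplotlib 3.10.9 were used for the rest.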

Additional observations from a re-analysis of the deposited data

Results flagged for a closer look

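In 5 of 58 groups of 9 libraries, 1 library stood far from the others, where chance gives about 1 in 20, and each group pools 3 strains. *PAI3* was at 45.23 CPM in the ΔMsn2/4 DMSO portion 1, against 70.48 in the next library. *URA1* was at 428.2 CPM in the ΔMsn2/4 drug portion 2 (next 315.8), and *ADE1* at 1105 CPM in the quadruple DMSO portion 1 (next 646.2). The genes of the mitochondrial genome summed to 10.12 CPM in the ΔMsn2/4 DMSO portion 1 (next 5.081) and to 3.335 CPM in the quadruple drug portion 1 (next 1.46), levels of a few counts per library.

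The drug effect differed between PKA-WT and PKA-AS strains with the same deletions, by edgeR's test of the difference, for 8 of the genes called in the pooled comparison. The PKA-WT LFC minus the PKA-AS LFC was 2.238 for *RSB1*, a value that includes ΔMsn2/4, where DMSO counts were 0 and the fitted size depends on the prior count. It was -0.7492 for *ATG40*, -1.107 for *COX5B* and -2.063 for *PAI3*, which all rose more in PKA-AS. It was 2.726 for *MAE1*, 2.252 for *URA1* and 2.96 for *RPL2A*, which all fell more in PKA-AS, and -1.705 for *STI1*, which fell in PKA-WT and rose in PKA-AS. The largest differences among all genes of at least 10 counts were 6.713 for *NSR1*, 5.363 for *AAH1*, 5.296 for *RKI1*, 5.133 for *RMT2* and 5.019 for *URA7*. In the other direction they were -5.28 for *HXT7*, -4.225 for *RTN2*, -4.083 for *HSP12*, -3.979 for *GLC3* and -3.957 for *DDR2*. Of these 10, none was called in PKA-WT.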

How the results depend on the processing

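No called gene changed sign under any alternative, and *PDR5*, *YOR1*, *RSB1* and *YGR035C* stayed called in all 33. *RPL2A* stayed called in 7, *MGT1* in 11, and *ADE1* and *MMP1* in 12. The 12 higher genes stayed called with either replicate block, other scalings or filters, DESeq2 and all *S. cerevisiae* cultures in the fit. Counts of higher and lower genes moved as follows, and the cause was not tested beyond the fewer or more samples each fit holds. In the pooled comparison, DESeq2 gave 34 and 60, all *S. cerevisiae* cultures 42 and 69, the culture as replicate block 19 and 22, and the replicate number as block 34 and 57. Library totals gave 3 lower genes, and 5 higher in ΔRph1/Gis1 alone. Without ΔMsn2/4 the pooled counts were 6 and 0, without ΔRph1/Gis1 6 and 2, and without the quadruple strain 5 and 0. An adjusted p under 0.05 gave 21 and 32, an LFC limit of 2 gave 7 and 0, and leaving out quadruple culture 3 gave 6 lower. In single strains (ΔMsn2/4, ΔRph1/Gis1, quadruple), DESeq2 gave 9 and 8, 6 and 7, 10 and 22, and all cultures gave 10 and 4, 7 and 1, 13 and 26. The culture block gave 5 higher in ΔMsn2/4 and 1 lower in the quadruple strain. Only the 6 libraries of a strain gave 0 higher in each. An adjusted p under 0.05 gave 8 higher in ΔMsn2/4, and 4 higher and 1 lower in the quadruple strain. DESeq2 called 1 gene in the interaction. Leaving out replicates gave 4 to 12 higher and 0 to 11 lower pooled, 2 to 3 higher in ΔMsn2/4 and the quadruple strain, 2 to 4 higher and 0 to 1 lower in ΔRph1/Gis1, 0 for the interaction and for deletions against none, and 722 to 802 above and 452 to 579 below for PKA-WT against PKA-AS. With the culture as replicate block, the counts were also 7 and 1 in PKA-WT without a deletion, where DESeq2 gave 6 and 4. The same block gave 1693 and 1462 in PKA-AS and 903 and 786 for PKA-WT against PKA-AS. Depth limits genes such as *YGR035C*, *CIS1* and *RSB1*, which rest on few counts with DMSO.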

Other observations

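The MATa markers *STE2*, *STE6*, *BAR1*, *MFA1*, *MFA2* and *AGA2* summed to 699 to 2046 CPM in the 18 libraries. Of 4 MATalpha markers listed, only 2, *STE3* and *SAG1*, were matched to the counts, and they summed to 6.58 to 17.9 CPM. *MFALPHA1* and *MFALPHA2* were not matched, so their levels are not known here. *STE3*, a defining MATalpha marker, had 0 to 1 counts. *SAG1*, the MATalpha agglutinin, had 9 to 49 counts and was higher in the drug portion of 9 of 9 cultures, with an LFC of 0.63 that missed the threshold (adjusted p = 0.159).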
